A study of Mus musculus with 9 samples.

Results

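The enzymes that build squalene from acetyl-CoA by way of mevalonate were followed as a group of 9 genes, Acat2, Hmgcs1, Mvk, Pmvk, Mvd, Idi1, Fdps, Fdft1 and Sqle, out of 54532 gene IDs counted in mouse liver. They were chosen by name, as rows of the count table whose Ensembl ID carries 1 of these symbols in GENCODE M21, at a time when earlier results of these data were known. All 9 were in the table and all 9 passed the filter on low counts, as did 14763 genes in all. Livers of 9 mice, labelled ApoE-/- on the C57BL/6 background and described as male, were sequenced, 3 per group, and 3 libraries went against the stated sex or genotype, as given with the library totals. ApoE-/- mice lack apolipoprotein E, which clears remnant lipoproteins, and the labels give this genotype to all 3 groups, with no wild-type group. The normal diet group (replicates 4, 5 and 6) has no other treatment in the labels. The HFD + PBS group (replicates 3, 4 and 6) received a high-fat diet (41% of calories as fat, 43% as carbohydrate and 17% as protein, 4700 kcal/kg) from 4 weeks of age for 20 weeks. These animals then had chow for 1 week and intraperitoneal PBS at 25, 26 and 27 weeks of age, and death was at 29 weeks. The HFD + IgG1 group (replicates 5, 6 and 7) had the same diet and schedule with 3 mg of recombinant human IgG1 as the injected agent. The label of 1 of these 3 libraries, replicate 5, reads IgG1, while those of replicates 6 and 7 read IgG2 and IgG3. No source states when the normal diet mice were killed or what they were injected with, so diet, age and injection cannot be told apart in any comparison with them. Livers were picked for sequencing by their lipid staining and triglyceride content.

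Squalene is the first compound of the pathway committed to sterols. Acat2 joins acetyl-CoA units, Hmgcs1 adds another to give HMG-CoA, Mvk, Pmvk and Mvd turn mevalonate into isopentenyl diphosphate, Idi1 isomerises it, Fdps chains the isoprene units into farnesyl diphosphate, Fdft1 couples farnesyl diphosphate to squalene, and Sqle oxidises squalene on the way to lanosterol. In liver the genes are known targets of the transcription factor SREBP-2, which Scap carries out of the endoplasmic reticulum when membrane sterol is low and which Insig proteins hold back when it is high. SREBP-2 binds sterol regulatory elements, usually together with NF-Y at CCAAT boxes and Sp1 at GC boxes.

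Promoter sequence was looked up because the 9 genes varied together over the libraries. RefSeq promoter windows (build GRCm38.p6, 250 bases before the annotated start) matched 6 of the 9 members, with 7 windows in all, and none was printed for Fdps, Fdft1 and Sqle. Of the 4 windows with the most of the motifs that were searched, 3 are shown 5′ to 3′ on the strand of the gene, without any exon base. They are Hmgcs1 at chr13:119690101-119690350 (+ strand), Mvk at chr5:114444061-114444268 (+ strand) and Mvd at chr8:122443423-122443672 (- strand). Capitals mark CCAAT on either strand, so ATTGG where it is on the other one, and the sterol regulatory element TCACNCCAC.
Hmgcs1: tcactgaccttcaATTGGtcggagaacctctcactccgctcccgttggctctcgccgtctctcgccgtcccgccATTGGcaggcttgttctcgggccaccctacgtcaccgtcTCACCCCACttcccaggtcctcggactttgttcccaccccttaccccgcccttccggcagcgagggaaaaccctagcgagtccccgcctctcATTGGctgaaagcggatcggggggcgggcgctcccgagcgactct
Mvk: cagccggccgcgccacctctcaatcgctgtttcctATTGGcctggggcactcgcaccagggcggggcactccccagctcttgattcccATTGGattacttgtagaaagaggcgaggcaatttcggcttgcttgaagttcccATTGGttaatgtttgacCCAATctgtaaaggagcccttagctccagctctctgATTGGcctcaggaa
Mvd: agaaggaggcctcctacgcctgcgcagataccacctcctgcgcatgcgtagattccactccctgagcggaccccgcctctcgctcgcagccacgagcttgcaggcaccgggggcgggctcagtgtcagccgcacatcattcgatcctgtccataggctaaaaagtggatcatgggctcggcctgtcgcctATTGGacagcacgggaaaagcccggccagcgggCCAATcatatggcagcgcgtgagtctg
The Hmgcs1 window held 3 CCAAT boxes and the only match of a member to TCACNCCAC, which begins 137 bases before the start. That motif was in 1 of 7 member windows and in 1.05% of all 32851 windows of the same length, with both strands searched. The Mvk stretch, 208 bases long, held 5 CCAAT boxes and the Mvd window 2. At least 1 CCAAT was in 5 of 7 member windows against 33.8% of all windows, and 2 or more were in 4 of 7 against 10.1%. The GC box GGGCGG was in 5 of 7 against 32.7%. Idi1 had as many matches as Mvd, with 2 CCAAT boxes and 1 GC box, and is not shown because its window lies within the span of the antisense gene Gm48574. A match is a run of letters and not a measured binding site, and no binding was measured in these mice.

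Library totals ran from 16215194 to 18538463 counts. Of all counts, the 9 enzymes together took 0.0364, 0.0438 and 0.0314% in the normal diet libraries, 0.189, 0.108 and 0.0545% in HFD + PBS and 0.115, 0.128 and 0.0682% in HFD + IgG1. There were 3 libraries at odds with their labels. The library labelled normal diet replicate 5 and that labelled HFD + PBS replicate 6 had 17065 and 10970 counts of Xist, the RNA of the inactive X chromosome, with 0 counts over 4 Y-linked genes, whereas the other 7 libraries had at most 4 Xist counts and 2837 to 3385 Y-linked counts. The library labelled HFD + IgG1 replicate 5 had 235888 counts of Apoe, the deleted gene, against 225 to 1655 in the other 8. Values with and without these 3 libraries are given below. Levels are given as CPM, edgeR's counts scaled to library size with TMM factors. Summed hepatocyte markers were at 94375 to 106038 CPM in normal diet, 60603 to 119762 in HFD + PBS and 103906 to 186573 in HFD + IgG1, with all 10 detected.

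After the high-fat diet with PBS, all 9 enzymes were measured at higher average levels than in normal diet, from 1.69-fold (Acat2) to 6.40-fold (Fdps), but none passed the test over all genes. At an adjusted p under 0.05 edgeR called 0 of 9 members and 0% of the 14763 genes tested. At an unadjusted p under 0.05 all 9 were higher and 0 lower, against 9.41% of all genes higher and 11.4% lower. For 6 of 9 the 3 HFD + PBS values lay above the 3 normal diet values, which held for 13% of all genes (15.3% lay below). All 9 fitted log2 differences were above 0, as for 49.7% of all genes, and 8 were at least 1, as for 8.49%. The median over the 9 was 1.5, against -0.00279 over all genes. 

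**Figure D1:**
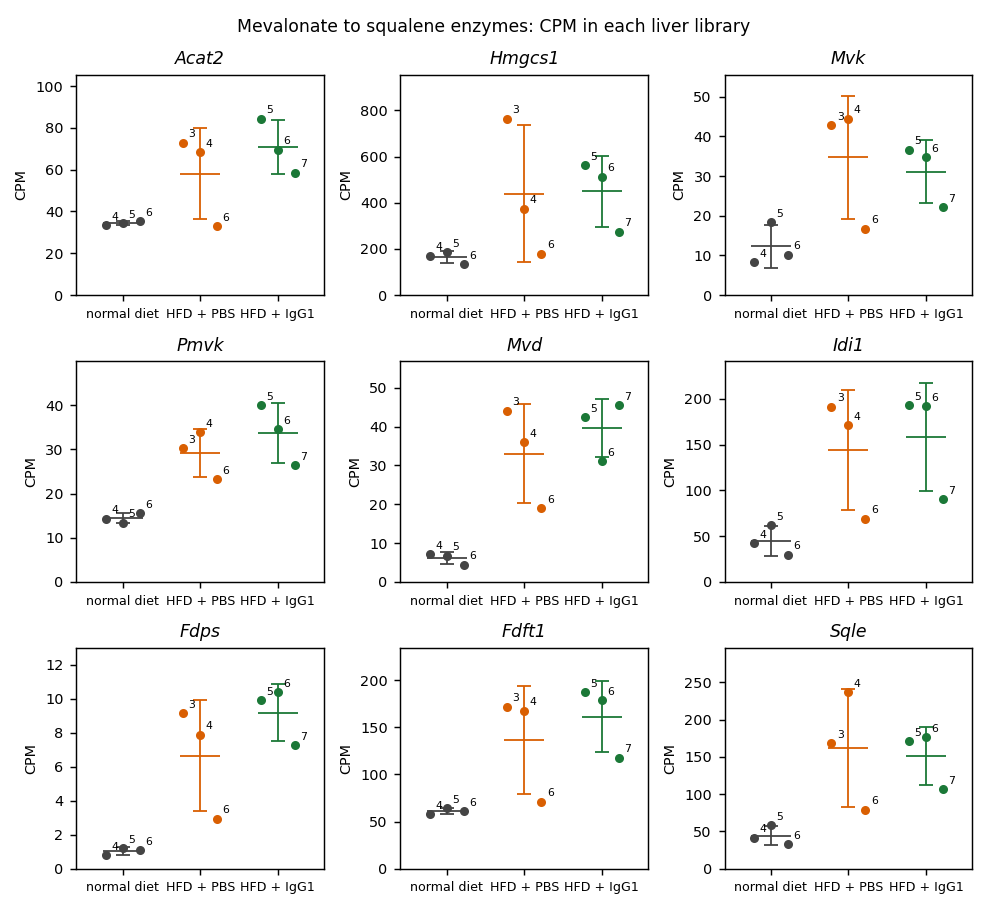
CPM of each of the 9 enzymes (y axis, linear from 0) in each library, by group (x axis). Points are libraries with their replicate number, the long line is the group mean and the whiskers are 1 SD over 3 libraries. HFD + PBS replicate 6 is the lowest of its group in all 9 panels.

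The opening steps gave the smallest differences or the widest spread. Acat2, the cytosolic thiolase (ENSMUSG00000023832, chromosome 17, 12942890 to 12960747, - strand, mm10), was at 33.3, 34.5 and 35.3 CPM in normal diet replicates 4, 5 and 6. In HFD + PBS replicates 3, 4 and 6 it was at 73.0, 68.4 and 33.0 CPM. Replicate 6 sat below all 3 normal diet livers, so the groups overlapped, and the log2 difference was 0.76 (SE 0.27, edgeR adjusted p = 0.170). Hmgcs1, the cytosolic HMG-CoA synthase (ENSMUSG00000093930, chromosome 13, 119690379 to 119708260, + strand), was at 170, 186 and 134 CPM in normal diet and at 764, 375 and 179 in HFD + PBS. Replicate 3 was the highest and replicate 6, at 179, lay inside the normal diet range. The log2 difference was 1.43 (SE 0.48, edgeR adjusted p = 0.160).

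The 3 enzymes that lead from mevalonate to isopentenyl diphosphate differed in how well the groups separated. Mevalonate kinase, Mvk (ENSMUSG00000041939, chromosome 5, 114444269 to 114460591, + strand), was at 8.24, 18.3 and 10.2 CPM in normal diet and 42.9, 44.5 and 16.8 in HFD + PBS. The 2 values that overlapped, 18.3 and 16.8, came from the libraries with Xist counts (log2 difference 1.5, SE 0.42, edgeR adjusted p = 0.123). Phosphomevalonate kinase, Pmvk (ENSMUSG00000027952, chromosome 3, 89454541 to 89469013, + strand), was at 14.3, 13.4 and 15.6 CPM against 30.3, 34.0 and 23.3. Its groups did not overlap and its spread was the smallest of the 9 within HFD + PBS, with a coefficient of variation of 18.6% (log2 difference 1.01, SE 0.20, edgeR adjusted p = 0.0780). The decarboxylase Mvd (ENSMUSG00000006517, chromosome 8, 122433601 to 122443422, - strand) was at 7.14, 6.79 and 4.44 CPM against 44.0, 36.0 and 18.98. Even the lowest HFD + PBS liver was above every normal diet liver (log2 difference 2.43, SE 0.32, edgeR adjusted p = 0.0627).

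Idi1 (ENSMUSG00000058258, chromosome 13, 8885501 to 8892451, + strand) was at 42.0, 61.7 and 29.5 CPM in normal diet and 191, 171 and 69.2 in HFD + PBS. The groups did not overlap, with replicate 6 at 69.2 just above the highest normal diet liver at 61.7 (log2 difference 1.70, SE 0.45, edgeR adjusted p = 0.117). Farnesyl diphosphate synthase, Fdps (ENSMUSG00000059743, chromosome 3, 89093588 to 89101959, - strand), had the lowest counts of the group, 13, 22 and 18 in normal diet and 207, 138 and 57 in HFD + PBS. In CPM that was 0.79, 1.22 and 1.08 against 9.14, 7.89 and 2.94, again without overlap (log2 difference 2.68, SE 0.43, edgeR adjusted p = 0.0627).

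The enzymes on either side of squalene followed. Squalene synthase, Fdft1 (ENSMUSG00000021273, chromosome 14, 63145150 to 63179578, - strand), was at 57.8, 64.1 and 61.1 CPM in normal diet and at 172, 168 and 71.0 in HFD + PBS. The groups were separate by 71.0 against 64.1 (log2 difference 1.16, SE 0.31, edgeR adjusted p = 0.115). Squalene epoxidase, Sqle (ENSMUSG00000022351, chromosome 15, 59315077 to 59331192, + strand), was at 41.5, 58.1 and 33.1 CPM against 169, 236 and 79.1. Sqle was 1 of 3 members highest in HFD + PBS replicate 4 (log2 difference 1.87, SE 0.39, edgeR adjusted p = 0.0786).

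One library stood apart from its group. HFD + PBS replicate 6 was the lowest of its group for 9 of 9 members, while replicate 3 was the highest for 6 and replicate 4 for 3. Against the normal diet mean, the median log2 deviation over the 9 enzymes was 1.97 and 1.95 in HFD + PBS replicates 3 and 4 and 0.69 in replicate 6. In normal diet it was -0.04, 0.20 and -0.18. Replicate 6 is 1 of the 2 libraries with Xist and no Y-linked counts, and the part this plays was not tested. Without it edgeR called 3 of 9 members, Mvd (2.71, SE 0.25, edgeR adjusted p = 0.0217), Fdps (3.03, SE 0.30, edgeR adjusted p = 0.0217) and Sqle (2.2, SE 0.30, edgeR adjusted p = 0.0451), where 0.0926% of all genes were called, and the median was 1.83. Without all 3 odd libraries the median was 2.27 and no member passed with 2 libraries per group. All 9 were then without overlap, as were 25.2% of genes in that direction and 26.3% in the other.

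**Figure D2:**
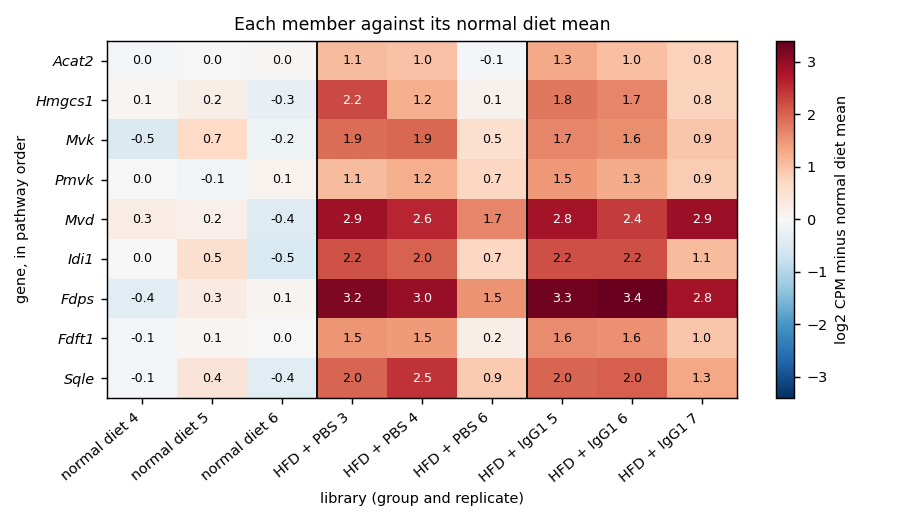
Log2 CPM of each enzyme (rows, in pathway order) in each library (columns) minus the mean log2 CPM of the normal diet libraries, colour scale in log2 units. HFD + PBS replicate 6 is pale beside replicates 3 and 4, and Mvd and Fdps are the darkest rows.

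The number of members called differed between settings. DESeq2 called 8 of 9 members in HFD + PBS against normal diet, all except Acat2 (adjusted p = 0.0754), with 8.02% of all genes called. With no filter on low counts edgeR called 3 (Pmvk, Mvd and Fdps, 1.03% of genes), and with only the 6 libraries compared the same 3 names (1.27%). Without HFD + IgG1 replicate 6, a library outside the comparison, it called 4 (Pmvk, Mvd, Fdps and Sqle, 3.79%).

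Between HFD + IgG1 and HFD + PBS, the comparison that asks what the antibody does after the diet, no difference was detected in these enzymes. The log2 differences ran from -0.16 (Mvk) to 0.46 (Fdps), with a median of 0.21 against 0.04 over all genes, and edgeR adjusted p from 0.465 to 0.969. At an adjusted p under 0.05, 0 of 9 members and 0% of all genes were called. At an unadjusted p under 0.05 it was 0 of 9, against 12.6% of genes higher and 11.6% lower. None of the 9 had groups without overlap, against 15.3% higher and 11.2% lower. DESeq2 also called 0 of 9, with 8.57% of genes called. In the edgeR fit 7 of 9 log2 differences were above 0 against 52.8% of genes, and none was at least 1, against 3.65%.

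Equal levels are not shown by this. The 95% interval of the fold was 0.86 to 1.55 for Pmvk, the narrowest, and 0.49 to 2.13 for Hmgcs1, the widest. For Idi1 it was 0.55 to 2.19, for Mvd 0.75 to 1.92 and for Sqle 0.52 to 1.69. HFD + IgG1 replicate 7 was the lowest of its group for 8 of 9 members, Mvd being the exception. Without the 3 odd libraries the median turned to -0.23, 0 members lay higher and 1, Mvk, lower without overlap, against 22.9% and 18.1% of genes. Without HFD + PBS replicate 6 alone it was -0.07.

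**Figure D3:**
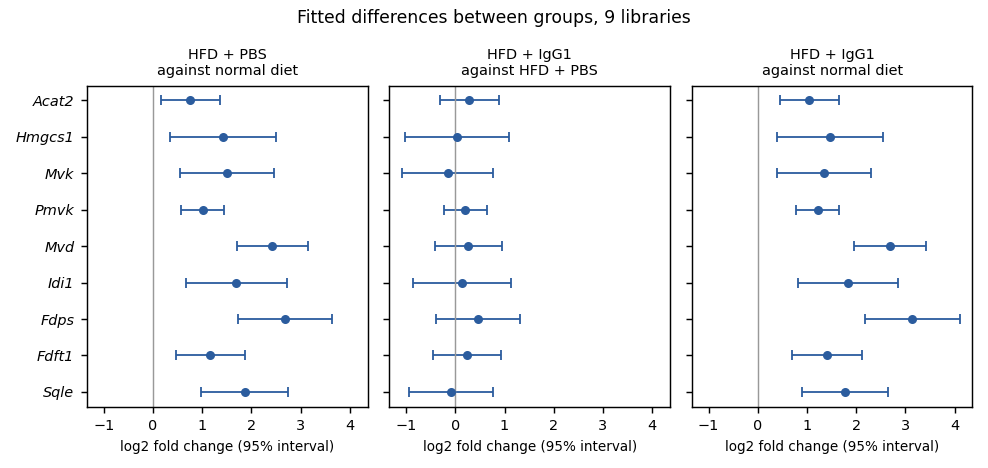
Fitted log2 fold change (x axis) of each enzyme (y axis) in the 3 comparisons, as points with 95% intervals from edgeR's fit over 9 libraries. The intervals of HFD + IgG1 against HFD + PBS all span 0, and those against normal diet lie above 0 before adjustment over genes.

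Livers given IgG1 after the diet were compared with normal diet too, a comparison that shares its normal diet libraries with the first. All 9 members had 3 HFD + IgG1 values above the 3 normal diet values, as had 5.54% of all genes, while 6.41% lay below. Fold differences ran from 2.06 (Acat2) to 8.82 (Fdps). At an adjusted p under 0.05 edgeR called 0 of 9 and 0% of genes. At an unadjusted p under 0.05 it was 9 of 9 higher, against 3.83% higher and 3.21% lower. All 9 differences were above 0 (50.4% of genes) and all 9 at least 1 (2.24%), with a median of 1.46 against 0.00329 over all genes.

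By member, Acat2 was at 84.4, 69.5 and 58.6 CPM in HFD + IgG1 replicates 5, 6 and 7, so each was above the 35.3 of the highest normal diet liver (1.04, SE 0.27, edgeR adjusted p = 0.478). Hmgcs1 was at 563, 512 and 275 CPM (1.46, SE 0.48, edgeR adjusted p = 0.607). For both, replicate 7 was the lowest of its group.

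Mvk was at 36.6, 34.7 and 22.2 CPM (1.34, SE 0.42, edgeR adjusted p = 0.600), and Pmvk at 39.96, 34.6 and 26.4 CPM (1.22, SE 0.20, edgeR adjusted p = 0.253). Mvd was at 42.4, 31.1 and 45.4 CPM, the only member highest in replicate 7 (2.69, SE 0.33, edgeR adjusted p = 0.158). All 3 were apart from normal diet in every liver.

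Idi1 was at 193, 192 and 90.0 CPM (1.83, SE 0.45, edgeR adjusted p = 0.478). Fdps was at 9.92, 10.4 and 7.25 CPM (3.14, SE 0.43, edgeR adjusted p = 0.194). Fdft1 was at 187, 179 and 118 CPM (1.40, SE 0.32, edgeR adjusted p = 0.426), and Sqle at 171, 176 and 107 CPM (1.77, SE 0.39, edgeR adjusted p = 0.426). In each of these 4, replicate 7 was again the lowest. The median deviation of the 9 from the normal diet mean was 1.80, 1.66 and 0.95 in replicates 5, 6 and 7.

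DESeq2 called 6 of 9 in HFD + IgG1 against normal diet (all except Acat2, Hmgcs1 and Mvk, 0.752% of genes), and edgeR called 3 with no filter (Pmvk, Mvd and Fdps, 0.0227%). It called Mvd and Fdps when fitted on the 6 libraries compared (0.0214%) and when HFD + PBS replicate 6 was left out (0.0265%), and Mvd alone without HFD + IgG1 replicate 6 (0.0394%). Without the 3 odd libraries the median was 1.62 and all 9 were without overlap, against 14.1% of genes higher and 16.5% lower. With replicate 5, the library labelled IgG1, as the only antibody library it was 1.79.

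Per kilobase of merged exon, the order of levels was led by Hmgcs1 in every group. In normal diet Hmgcs1 was at 35.6 ± 5.78 CPM per kb (mean ± SD, n = 3), then Fdft1 at 14.4, Acat2 at 13.5, Idi1 at 12.7, Pmvk at 8.42, Sqle at 7.98, Mvk at 4.58 and Mvd at 3.29, with Fdps last at 0.245 ± 0.0521. Only the steps from Hmgcs1 to Fdft1 and from Mvd to Fdps were free of overlap between neighbours. In HFD + PBS, Hmgcs1 was at 95.7 ± 64.8, Idi1 second at 41.0 ± 18.7, and Fdps last at 1.58 ± 0.779 CPM per kb, and only the last step, from Mvk at 13.0 to Fdps, had no overlap. In HFD + IgG1 the ends were the same, at 98.0 ± 33.5 and 2.18 ± 0.401, with Idi1 second at 45.2 ± 16.9.

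Some of these counts depend on how reads shared by genes were assigned. Fdps has processed pseudogenes, Gm3571 and Gm5873. Of its 100-base transcript stretches, 21.4% recur exactly in other annotated transcripts, 20.5% in the overlapping gene Gm43738, 3.74% in Gm3571 and 1.58% in Gm5873. The 2 pseudogenes together held more counts than Fdps in every library, 64, 76 and 86 in normal diet, 507, 436 and 157 in HFD + PBS and 337, 437 and 244 in HFD + IgG1. In CPM their sum was lowest where Fdps was, in normal diet replicate 4, HFD + PBS replicate 6 and HFD + IgG1 replicate 7. The highest library of each group was not that of Fdps. Adding them to Fdps gave log2 differences of 2.2 (SE 0.39) in HFD + PBS and 2.45 (SE 0.39) in HFD + IgG1 against normal diet. The low Fdps level per kb is the level of the Fdps ID in this table. Gm43738, on the same strand, shares 1124 exon bases with Fdps and had 0 counts.

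Acat2 shares 28.9% of its 100-base stretches with other transcripts, most with Acat3, a near-identical thiolase on chromosome 17. Acat3 was at 134, 168 and 153 CPM in normal diet, 113, 94.1 and 118 in HFD + PBS and 179, 144 and 179 in HFD + IgG1, so it had more counts than Acat2 in all 9 libraries. Its log2 difference in HFD + PBS against normal diet was -0.49 (SE 0.16), opposite to Acat2. Summing the pair turned the sign to -0.16 (SE 0.16, edgeR adjusted p = 0.588), and gave 0.36 (SE 0.16) for HFD + IgG1 against normal diet. The Acat2 difference in HFD + PBS against normal diet holds for the Acat2 ID and not for the pair. Between HFD + IgG1 and HFD + PBS the sums did not overlap, at 264, 213 and 237 against 186, 162 and 151 CPM (15.3% of all genes were higher without overlap). Acat3 alone differed there by 0.63 (SE 0.16, edgeR adjusted p = 0.140). With copies added, 1 of 9 members had an unadjusted p under 0.05 in that comparison, as had 3570 of 14758 genes tested. At the adjusted threshold 0 members were called (lowest edgeR adjusted p = 0.140).

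Idi1 shares 21.9% of its 100-base stretches, mostly with the pseudogene Gm13502, and with its copies added its log2 difference was 1.61 in place of 1.70. Fdft1 shares 18.3%, mostly with the 774 exon bases where it overlaps Ctsb on the opposite strand, a cathepsin gene at 1044 ± 171 CPM in normal diet, 1306 ± 134 in HFD + PBS and 982 ± 297 in HFD + IgG1 (mean ± SD, n = 3). No source says whether counting used the strand, so reads of the overlap cannot be assigned to either gene. Ctsb itself differed by 0.32 (SE 0.25) in HFD + PBS against normal diet. The antisense gene Gm48342 overlaps 557 exon bases of Hmgcs1 with 33 counts in all 9 libraries, and Gm48574 overlaps 323 of Idi1 with 2. The small nuclear RNA gene Gm22935 lies within Fdps but in none of its exons and had 38 counts in all 9 libraries, 18 of them in HFD + IgG1 replicate 7. Gm20388, across Mvd, had 0. Mvk, Pmvk, Mvd and Sqle shared 0% of their 100-base stretches.

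Mvk and Mmab, an enzyme gene of vitamin B12 metabolism, start 209 bases apart and are read away from each other. The stretch between them is the Mvk sequence printed above, with its 5 CCAAT boxes. Mmab was at 10.6, 19.4 and 11.8 CPM in normal diet, 23.2, 31.3 and 15.5 in HFD + PBS and 43.9, 30.2 and 28.9 in HFD + IgG1. As for Mvk, normal diet replicate 5 was the highest and HFD + PBS replicate 6 the lowest of its group, and those groups overlapped. The log2 differences were 0.74 (SE 0.31, edgeR adjusted p = 0.218) for HFD + PBS and 1.30 (SE 0.31, edgeR adjusted p = 0.470) for HFD + IgG1 against normal diet.

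Acat1 is the mitochondrial thiolase counterpart of Acat2 and works in the metabolism of ketone bodies and isoleucine. It was at 346 ± 34.5 CPM in normal diet, 156 ± 43.4 in HFD + PBS and 316 ± 144 in HFD + IgG1 (mean ± SD, n = 3). Its log2 difference in HFD + PBS against normal diet was -1.15 (SE 0.35, edgeR adjusted p = 0.136). Counts of Acat2 were 10.03, 10.8 and 9.16% of those of Acat1 in normal diet, 61.4, 46.8 and 16.2% in HFD + PBS and 22.7, 45.6 and 13.8% in HFD + IgG1. Every high-fat diet liver was above every normal diet liver, by 3.61-fold for HFD + PBS and 2.44-fold for HFD + IgG1 in geometric means. This holds for counts of the Acat2 ID alone, and the ratio was not tested with Acat3 added.

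At the farnesyl diphosphate branch point, Fdft1 leads to sterols and Ggps1 to geranylgeranyl diphosphate. Fdft1 counts were 541, 623 and 534% of Ggps1 counts in normal diet, 1614, 1655 and 713% in HFD + PBS and 1846, 1911 and 1027% in HFD + IgG1. No value overlapped with normal diet (2.198-fold and 2.72-fold). Fdft1 against Sqle went the other way, 139, 110 and 185% in normal diet and 101.8, 70.8 and 89.8% in HFD + PBS, a ratio of 0.61. In HFD + IgG1 it was 109.7, 101.5 and 110.2%, the highest just under the lowest normal diet value of 110.3%. For HFD + PBS and for HFD + IgG1 against normal diet, each of these 3 ratios gave a two-sided exact permutation p of 0.1, the smallest that 3 against 3 allows, or 0.188 after Benjamini-Hochberg adjustment over 15 tests. Sqle against the next enzyme, Lss, differed by 1.08-fold in HFD + PBS against normal diet (exact permutation p = 0.8). The ratios were chosen after the counts were seen and need no scaling between libraries.

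**Figure D4:**
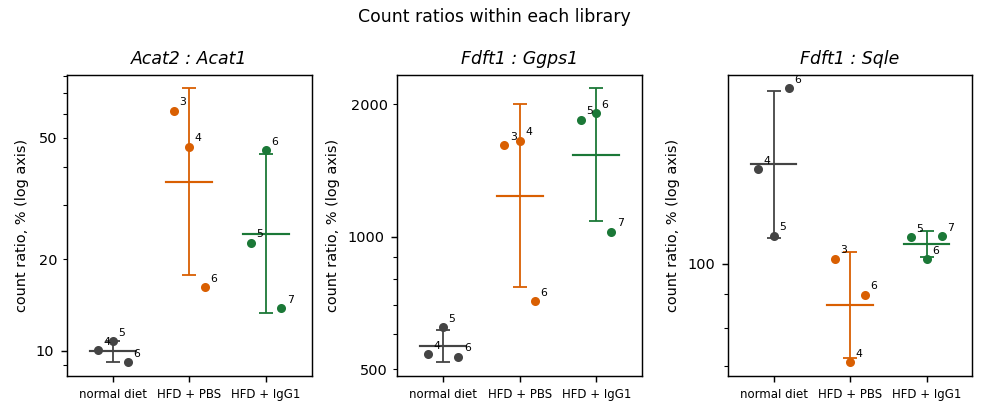
Count ratio within each library, in percent on a log axis (y), for Acat2 to Acat1, Fdft1 to Ggps1 and Fdft1 to Sqle, by group (x). Points are libraries with their replicate number, lines the geometric mean and whiskers 1 SD of the log2 ratio over 3 libraries. Acat2 counts are those of the Acat2 ID, without Acat3. The 3 normal diet points lie below every high-fat diet point for Acat2 to Acat1 and Fdft1 to Ggps1, and above them for Fdft1 to Sqle, there by 110.3 against 110.2% at the nearest.

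Other genes of sterol metabolism were read from lists, all without a gene past the adjusted threshold. Of the 11 enzymes after squalene, 6 were higher and 0 lower at an unadjusted p under 0.05 in HFD + PBS against normal diet (9.41% and 11.4% of all genes), with a median log2 difference of 1.02. Lss, which closes the ring, was at 1.75 (SE 0.36), Msmo1, a C4 demethylation enzyme, at 1.59 (SE 0.40), Nsdhl, of the same step, at 1.43 (SE 0.35) and the sterol reductase Lbr at 1.18 (SE 0.33). In HFD + IgG1 against normal diet 8 were higher (3.83% of all genes), with a median of 0.99 and Lss at 1.90 (SE 0.36). The isoprenoid branch, which takes the same precursors to prenylated proteins, ubiquinone and dolichol, had a median of 0.01 over 15 genes, with 0 higher and 1 lower. Icmt, a methyltransferase of prenylated proteins, was at -0.49 (SE 0.17), Trit1 at -0.41 (SE 0.21), Dhdds, of dolichol synthesis, at 0.24 (SE 0.14) and Pdss2, of ubiquinone synthesis, at -0.37 (SE 0.23).

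Regulators of the pathway were listed next. Of 11 SREBP control genes tested (12 were listed), 3 had log2 differences above 0 in HFD + PBS against normal diet, with a median of -0.25. By an unadjusted p under 0.05, 1 was higher and 2 lower, against 9.41% and 11.4% of all genes. Srebf2, the gene of SREBP-2, was at 80.1 ± 14.96 CPM in normal diet, 104 ± 20.6 in HFD + PBS and 114 ± 14.1 in HFD + IgG1 (mean ± SD, n = 3), a log2 difference of 0.38 (SE 0.20) and 0.51 (SE 0.20). Scap was at -0.48 (SE 0.16), Mbtps1, a protease that frees SREBP, at -0.36 (SE 0.14) and Insig1, itself a known SREBP target, at 0.84 (SE 0.35). A list of other SREBP-2 targets, which shares Mylip with the LXR list below, had 9 genes tested and a median of 0.52. By the same rule 3 were higher and 2 lower. Aacs, which makes acetoacetyl-CoA in the cytosol, was at 1.90 (SE 0.50), Rdh11 at 1.09 (SE 0.36), Tmem97 at 0.52 (SE 0.21) and the lysosomal cholesterol transporter Npc1 at -0.93 (SE 0.24).

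Fatty acid synthesis, the SREBP-1 side, was mixed in HFD + PBS against normal diet, with a median of 0.25. Of its 10 genes, 3 were higher and 2 lower at an unadjusted p under 0.05 (9.41% and 11.4% of all genes). The desaturase Scd1 was at 2.31 (SE 0.46) and Fasn at 1.43 (SE 0.40), against Me1, malic enzyme, at -2.26 (SE 0.43) and the elongase Elovl5 at -1.06 (SE 0.31). Targets of LXR, the oxysterol receptor, had a median of 0.06 with 0 of 8 higher and 2 lower by that rule. They included Lpcat3 at -0.62 (SE 0.14), Abcg8 at -0.48 (SE 0.20), Mylip at 0.29 (SE 0.22) and Srebf1 at 0.44 (SE 0.36).

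Of 6 genes that esterify, oxidise or export cholesterol, 0 were higher and 1 lower at an unadjusted p under 0.05. Over all genes it was 9.41% and 11.4%, and the median of the 6 was 0.01. Nceh1, a cholesteryl ester hydrolase, was at -0.80 (SE 0.23), the esterifying enzymes Soat1 and Soat2 at 0.73 (SE 0.40) and -0.09 (SE 0.25), and Cyp7a1, which opens bile acid synthesis, at 0.77 (SE 0.73). Among paralogs of members, Ggps1 was at -0.08 (SE 0.16) and Idi2 had 0 counts in all libraries.

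**Figure D5:**
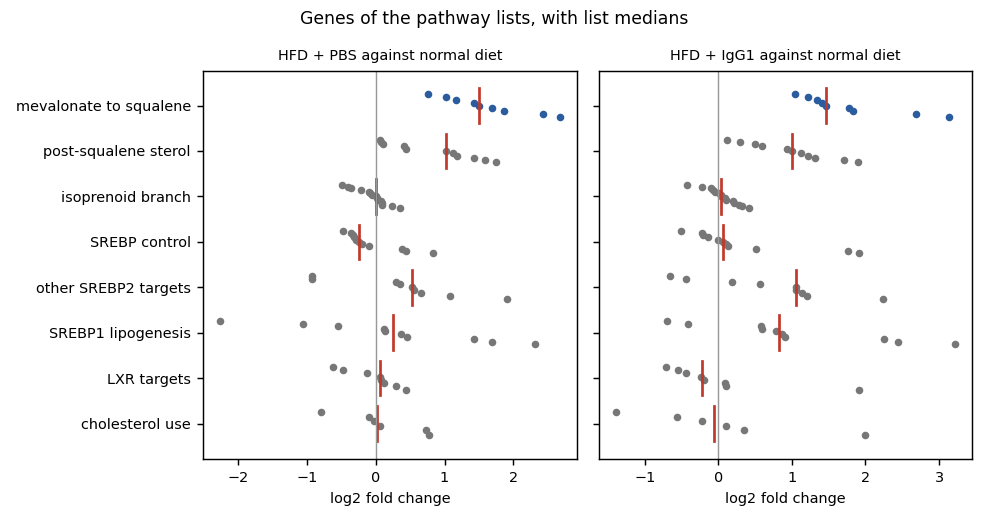
Log2 fold change (x axis) of each tested gene of 8 lists (y axis), for HFD + PBS (left) and HFD + IgG1 (right) against normal diet. Points are genes, blue for the 9 enzymes described here, and red bars are list medians: 1.5 and 1.46 for those 9, 1.02 and 0.99 for the enzymes after squalene, and 0.01 and 0.04 for the isoprenoid branch.

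Over the 9 libraries the members followed each other closely. Pearson's r of each member's log2(CPM + 0.5) with the mean of the other 8 ran from 0.92 (Hmgcs1 and Mvd) to 0.98 (Fdft1 and Fdps). These are descriptions, over libraries that share their groups and scaling. Of genes outside the members with at least 1 CPM on average, Lss (0.99) and Msmo1 (0.99) were most like the members' mean, and genes not reported here were skipped. Outside all lists the 8 most alike were Gm3571 (0.97), a pseudogene of Fdps, the ribosomal protein gene Rpl23a (0.96), the amino acid transporter gene Slc1a4 (0.92), Hps6 (0.92), Gm5873 (0.91), Fam45a (0.91), Cpne3 (0.90) and Eogt (0.90). Rpl23a was at 60.2 ± 1.09 CPM in normal diet, 93.1 ± 20.0 in HFD + PBS and 94.1 ± 3.01 in HFD + IgG1, and Slc1a4 at 4.42 ± 1.55, 11.5 ± 2.73 and 11.5 ± 1.27 (mean ± SD, n = 3).

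Markers of some other cell types differed between the same groups, and their part in the enzyme values was not tested. All 8 neutrophil markers had HFD + PBS values above normal diet without overlap, as had 13% of all genes. Their sums were 35.0 to 166 CPM in normal diet, 414 to 3321 in HFD + PBS and 13.3 to 522 in HFD + IgG1. Macrophage markers summed to 1214 to 1623, 1900 to 2100 and 581 to 1816 CPM. In HFD + PBS 7 of 10 lay above normal diet without overlap, against 13% of all genes (15.3% lay below). Cholangiocyte markers summed to 54.6 to 77.2, 146 to 263 and 62.9 to 103 CPM, with 3 of 6 above in the same way. Proliferation markers summed to 19.7 to 25.4, 26.5 to 286 and 12.7 to 50.5 CPM, with 1 of 8 above without overlap, near the share over all genes. Other lists had few markers above normal diet without overlap in HFD + PBS. These were 0 of 8 for lymphocytes, 1 of 7 for stellate cells and fibroblasts and 1 of 6 for endothelial cells. Muscle markers Ckm and Myh4 and the pancreatic markers Cela3b, Cpa1, Pnlip and Try4 were at 0 in all libraries. HFD + IgG1 replicates 5, 6 and 7 had neutrophil sums of 13.3, 522 and 19.9 CPM. Their enzymes stood at median log2 deviations of 1.80, 1.66 and 0.95, and no link between these values was tested. In whole liver, fewer cells of a type and less RNA per cell cannot be told apart.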

How the data were processed

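Whole liver RNA of 9 mice, 1 µg per library, was sequenced from NEBNext Ultra libraries, per the labels. The authors deposited raw counts, 1 row per Ensembl gene ID, without normalisation. The submitters' processing notes name Bowtie 0.12.2 and the build mm10. What counted the reads, and whether by strand, was not given in the sources used here. Groups follow the sample titles and series design. Nothing states more than separate livers, so p-values measure the spread between these livers.

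In R 4.3.3, edgeR 4.0.16 (TMM, filterByExpr with minimum count 10 and minimum total count 15, glmQLFit with robust = TRUE, glmQLFTest, two-sided) was fitted on all 9 libraries, with Benjamini-Hochberg adjustment over 14763 genes and a threshold of 0.05. The common dispersion was 0.101. CPM are TMM-scaled. Intervals of fold changes use the fit's SE and degrees of freedom. Fits were tested on simulated data. Alternatives included DESeq2 1.42.0, limma-voom 3.58.1, other scalings and filters, a replicate block and left-out libraries. Adding counts of gene copies was chosen after the data were seen.

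Named genes are the 9 members, up to 4 genes per list with the smallest p in HFD + PBS against normal diet, genes overlapping a member or starting within 1 kb of it, and the 8 genes outside the lists most alike. Members and lists were chosen with earlier results of these data known. Some genes this rule names, and 1 list, are not reported here. Acat3, Gm13502, Xist, Y-linked genes and Apoe were added for the reason given beside them. No column was left out. Depth, 16215194 to 18538463 counts, limits Fdps most.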

Additional observations from a re-analysis of the deposited data

How the results depend on the processing

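No member passed edgeR's adjusted threshold, and the count of members called was higher under some settings. For HFD + PBS against normal diet it was 8 with DESeq2, 3 when low counts were not filtered, 3 when fitted on the 6 libraries compared and 0 to 4 with 1 library left out (3 without HFD + PBS replicate 6, 4 without HFD + IgG1 replicate 6). For HFD + IgG1 against normal diet it was 6, 3, 2 and 0 to 2 under the same settings (2 without HFD + PBS replicate 6, 1 without HFD + IgG1 replicate 6). For HFD + IgG1 against HFD + PBS it was 0 under every alternative. The cause was not tested. limma-voom, RLE and upper-quartile factors, a filter of 1 CPM in 3 libraries, robust = FALSE and the fit without the 3 odd libraries called 0.

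The median log2 difference of the members in HFD + PBS against normal diet was 2.27 without the 3 odd libraries, in place of 1.5. With 1 library left out the medians ran from 1.35 to 1.91, from -0.07 to 0.41 and from 1.27 to 1.76 in HFD + PBS against normal diet, HFD + IgG1 against HFD + PBS and HFD + IgG1 against normal diet. Member values kept their sign in 179 of 180, 158 of 189 and 189 of 189 cases over the alternatives, the exception in the first being Acat2 with Acat3 added.

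With the replicate number as a block, 0 members were called and the medians were 1.44, 0.784 and 1.87. An unadjusted p under 0.05 was reached by 6, 1 and 9 members. Of all 14763 genes tested, 981, 370 and 396 reached it, in either direction. That fit had 2 residual degrees of freedom. Between same-numbered livers of different groups, r of the deviations over genes ran from -0.523 to 0.0176, against -0.376 to 0.463 for other pairs. No pairing by number was seen, but deviations from means of 3 libraries cannot exclude one. Fdps, with 13 to 22 counts per normal diet library, is the member most limited by depth.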
